A study of Mus musculus with 12 samples.

Results

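The S phase and replication genes described here are 46 listed mouse genes whose products license replication origins, unwind and copy DNA, supply nucleotides and rebuild chromatin behind the fork. They were taken by their symbols in the platform annotation, with 1 probe set per gene, the one with the highest mean over all arrays. Of the 46, 45 had a named probe set and all 45 were bright enough to be tested, out of 18194 genes measured and 11458 tested. Chaf1a, which encodes the large subunit of chromatin assembly factor 1, was not analysed here.

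RNA came from BL#19, a mouse cell line of Burkitt lymphoma, a tumour of germinal center B cells, whose Foxo1 alleles had been edited with CRISPR/Cas9. The 4 genotypes had 3 arrays each. In wt-/mt- cells both the wild-type and the mutant allele were knocked out (arrays 10, 11 and 12), in wt-/mt+ cells the wild-type allele was knocked out and the mutant allele was kept (arrays 4, 5 and 6), in wt+/mt- cells the mutant allele was knocked out and the wild-type allele was kept (arrays 7, 8 and 9), and wt+/mt+ cells kept both (arrays 1, 2 and 3). The mutant allele encodes FOXO1 T24P, in which threonine 24, a residue that AKT phosphorylates to move FOXO1 out of the nucleus, is replaced by proline. All 4 genotypes share the tumour background of the line, and the labels give neither the number of clones behind a genotype nor whether its 3 arrays came from separate cultures, so p-values measure only how far these arrays differ, which can be technical spread.

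FOXO1 is a forkhead transcription factor that PI3K and AKT signalling keeps in the cytoplasm, and FOXO factors are known to hold cells in G1 in many cell types. Entry into S phase starts with the licensing of origins, at which ORC, CDC6 and CDT1 load the ring-shaped MCM helicase. MCM10, CDC45 and GINS then activate it, polymerases alpha, delta and epsilon copy the strands around the PCNA clamp, and many genes of this machinery are transcribed under E2F factors in late G1. In proliferating germinal center B cells these genes are among the abundant cell cycle transcripts. In RNA from a whole culture, more cells in S phase and more RNA per cell cannot be told apart.

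The promoters were compared with RefSeq sequences of the mouse assembly GRCm38.p6, each from 250 bases before to 50 after a gene's start, and 38 of the 46 listed genes matched. The E2F motif, searched as TTTCCCGC or TTTGGCGC on both strands, was in 12 of these 38 genes (31.6%), against 329 of 9289 tested genes with a promoter sequence (3.54%) and 1.8% of all 27025 genes in the table. Mcm6, a subunit of the MCM helicase, had 2 matches before its start. It is printed with the 4 genes whose rise in wt-/mt- cells passed the test (limma adjusted p under 0.05) against each of the other genotypes. Each sequence is the 170 bases before the start, 5′ to 3′ on the gene's strand, with E2F matches in capitals. 
Ccne1 (GRCm38.p6, chr7:38107491-38107660, minus strand): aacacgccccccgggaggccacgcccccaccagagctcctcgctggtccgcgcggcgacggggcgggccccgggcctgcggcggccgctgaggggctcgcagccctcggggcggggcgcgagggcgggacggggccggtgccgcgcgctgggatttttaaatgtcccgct
Cdt1 (GRCm38.p6, chr8:122567845-122568014, plus strand): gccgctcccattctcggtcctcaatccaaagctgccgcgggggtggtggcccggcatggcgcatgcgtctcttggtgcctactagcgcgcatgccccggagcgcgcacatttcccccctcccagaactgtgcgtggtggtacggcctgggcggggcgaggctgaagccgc
Mcm2 (GRCm38.p6, chr6:88898781-88898950, minus strand): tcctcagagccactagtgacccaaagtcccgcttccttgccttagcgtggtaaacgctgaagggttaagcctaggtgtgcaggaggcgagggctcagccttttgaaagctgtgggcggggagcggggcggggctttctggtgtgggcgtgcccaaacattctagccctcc
Mcm6 (GRCm38.p6, chr1:128359706-128359875, minus strand): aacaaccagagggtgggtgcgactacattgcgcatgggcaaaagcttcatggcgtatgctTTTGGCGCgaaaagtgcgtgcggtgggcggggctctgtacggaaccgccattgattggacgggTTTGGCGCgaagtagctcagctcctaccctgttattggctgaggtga
Uhrf1 (GRCm38.p6, chr17:56303167-56303336, plus strand): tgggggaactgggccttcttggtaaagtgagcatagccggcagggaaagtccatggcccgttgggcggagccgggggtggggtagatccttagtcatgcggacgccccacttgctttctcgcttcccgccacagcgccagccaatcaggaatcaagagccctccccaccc
Of the 5, Mcm6 held the motif in the stretch shown, and Cdt1 held it 33 bases after the start. Cdc6, Mcm5, Mcm7 and Pola1 also had a match before the start, beginning 138, 149, 165 and 138 bases upstream. Their stretches are not printed because stretches that overlap an annotated gene were left out. The other motifs searched, also on both strands, were a CCAAT box (CCAAT), in 60.5% of the 38 genes and 42.9% of the tested genes, a forkhead motif (TGTTTAC), in 5.26% and 3.05%, and an E-box (CACGTG), in 15.8% and 11.7%. The forkhead letters were in 2 promoters, those of Cdc45 and Mcm7. Among genes with a promoter sequence, the E2F motif was in 2 of the 12 that rose after loss of both alleles and in 10 of the 25 that did not pass the test.

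Values are log2 levels of 1 probe set, so a difference of 1 is a 2-fold change, and they are given for wt-/mt- arrays 10, 11 and 12, wt-/mt+ arrays 4, 5 and 6, wt+/mt- arrays 7, 8 and 9 and wt+/mt+ arrays 1, 2 and 3, in that order. Changes were tested with limma over 11458 genes with Benjamini-Hochberg adjustment, and a gene was called where the adjusted p was under 0.05. The targeted gene, Foxo1, measured 10.23, 9.39 and 10.34 in wt-/mt- cells, 11.57, 11.16 and 11.64 in wt-/mt+ cells, 12.10, 11.92 and 11.59 in wt+/mt- cells, and 11.56, 11.63 and 11.72 in wt+/mt+ cells. Every wt-/mt- array was below every other array, with means of 9.99 ± 0.52 in wt-/mt- cells and 11.64 ± 0.08 in wt+/mt+ cells (SD, n = 3 arrays), a fall by 1.65 on the log2 scale (SE 0.23, limma adjusted p = 0.00122). Its change was -0.18 in wt-/mt+ and 0.24 in wt+/mt- cells relative to wt+/mt+, neither called, and the labels do not say where the edits lie, so a 3′ probe set need not report them. Of 8 B cell markers 7 were matched, and all 7 lay above the array median on all 12 arrays, with a summed log2 level of 78.0 to 83.1 in wt-/mt- cells, 81.4 to 83.1 in wt-/mt+ cells, 82.4 to 83.0 in wt+/mt- cells and 82.5 to 83.5 in wt+/mt+ cells. After loss of both alleles 3 of the 7 B cell markers were called lower and 0 higher, with changes between -0.96 and -0.16 and a median of -0.24. Of all 11458 tested genes 1139 were called lower and 1396 higher there. Against wt+/mt- cells 1 of the 7 was called lower (942 of all tested genes), and against wt-/mt+ cells 2 were (1269 of all tested genes). Of 4 germinal center markers matched, 3 lay above the median on all 12 arrays. After loss of both alleles 2 of the 4 were called lower and 1 higher, with changes between -2.00 and 2.16. The part of these shifts in the results was not tested. Of 6 myeloid markers Itgam, Cd14, Lyz2 and Mpo lay below the median on every array, while Csf1r and Adgre1 lay above it on all 12. The summed log2 level of the 6 was 34.1 to 35.3 in wt-/mt- cells, 33.7 to 34.5 in wt-/mt+ cells, 34.2 to 35.0 in wt+/mt- cells and 34.0 to 34.4 in wt+/mt+ cells. Of 6 T cell markers Cd3d, Cd3g and Trat1 lay below the median on every array, while Cd3e, Cd8a and Cd4 lay above it on all 12. Their summed level was 35.4 to 35.6 in wt-/mt- cells, 34.8 to 35.5 in wt-/mt+ cells, 35.4 to 36.0 in wt+/mt- cells and 34.9 to 35.5 in wt+/mt+ cells. Of 5 stromal markers Col1a1 and Col3a1 lay below the median on every array. The summed level of the 5 was highest in wt-/mt- cells, at 27.8 to 28.1. It was 27.4 to 27.6 in wt-/mt+, 27.1 to 27.4 in wt+/mt- and 26.7 to 27.4 in wt+/mt+ cells. Col1a2, the 1 stromal marker bright enough to be tested, changed by 0.19 after loss of both alleles and was not called. The 2 erythroid markers matched, Alas2 and Klf1, lay below the median on every array. After loss of both alleles 0 of the 3 T cell and 0 of the 2 myeloid markers bright enough to be tested were called (limma), with 1 and 0 at an unadjusted p under 0.05. On wt+/mt- arrays 7 and 8 the actin 3′ probe set exceeded the 5′ one by 2.17 and 1.71 (log2), against 1.06 to 1.29 on the other 10 arrays, which is a measure of RNA integrity and labelling. The bioD hybridization control measured 13.83 to 14.04 (log2) on the wt+/mt+ and wt-/mt+ arrays. On the wt+/mt- and wt-/mt- arrays it measured 12.97 to 13.52. This difference follows the genotypes, so its part in the changes cannot be told apart from theirs and was not tested.

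On each array, the median of the 45 genes relative to the wt+/mt+ mean was 0.70, 0.13 and 0.97 in wt-/mt- cells, 0.36, 0.15 and 0.62 in wt-/mt+ cells, -0.46, -0.33 and 0.20 in wt+/mt- cells, and 0.24, -0.07 and -0.17 in wt+/mt+ cells. Within a genotype the genes tended to share their high and low arrays. Array 11 was the lowest of the wt-/mt- arrays for 40 of the 45 genes, against 27.8% of all tested genes, and array 5 the lowest of the wt-/mt+ arrays for 39, against 32.2%. Array 9 was the highest wt+/mt- array for 42 genes, against 40.2%, and array 1 the highest wt+/mt+ array for 42, against 25.3%. The median SD of the 45 genes over 3 arrays was 0.435 in wt-/mt- cells, 0.237 in wt-/mt+ cells, 0.377 in wt+/mt- cells and 0.212 in wt+/mt+ cells, against 0.261, 0.111, 0.133 and 0.095 for all tested genes. The spread was thus wider for the replication genes than for all genes in every genotype, and widest in wt-/mt- cells. Wt+/mt- arrays 7 and 8, the lowest of all 12 arrays in this median, are those with the high actin ratios.

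**Figure D1:**
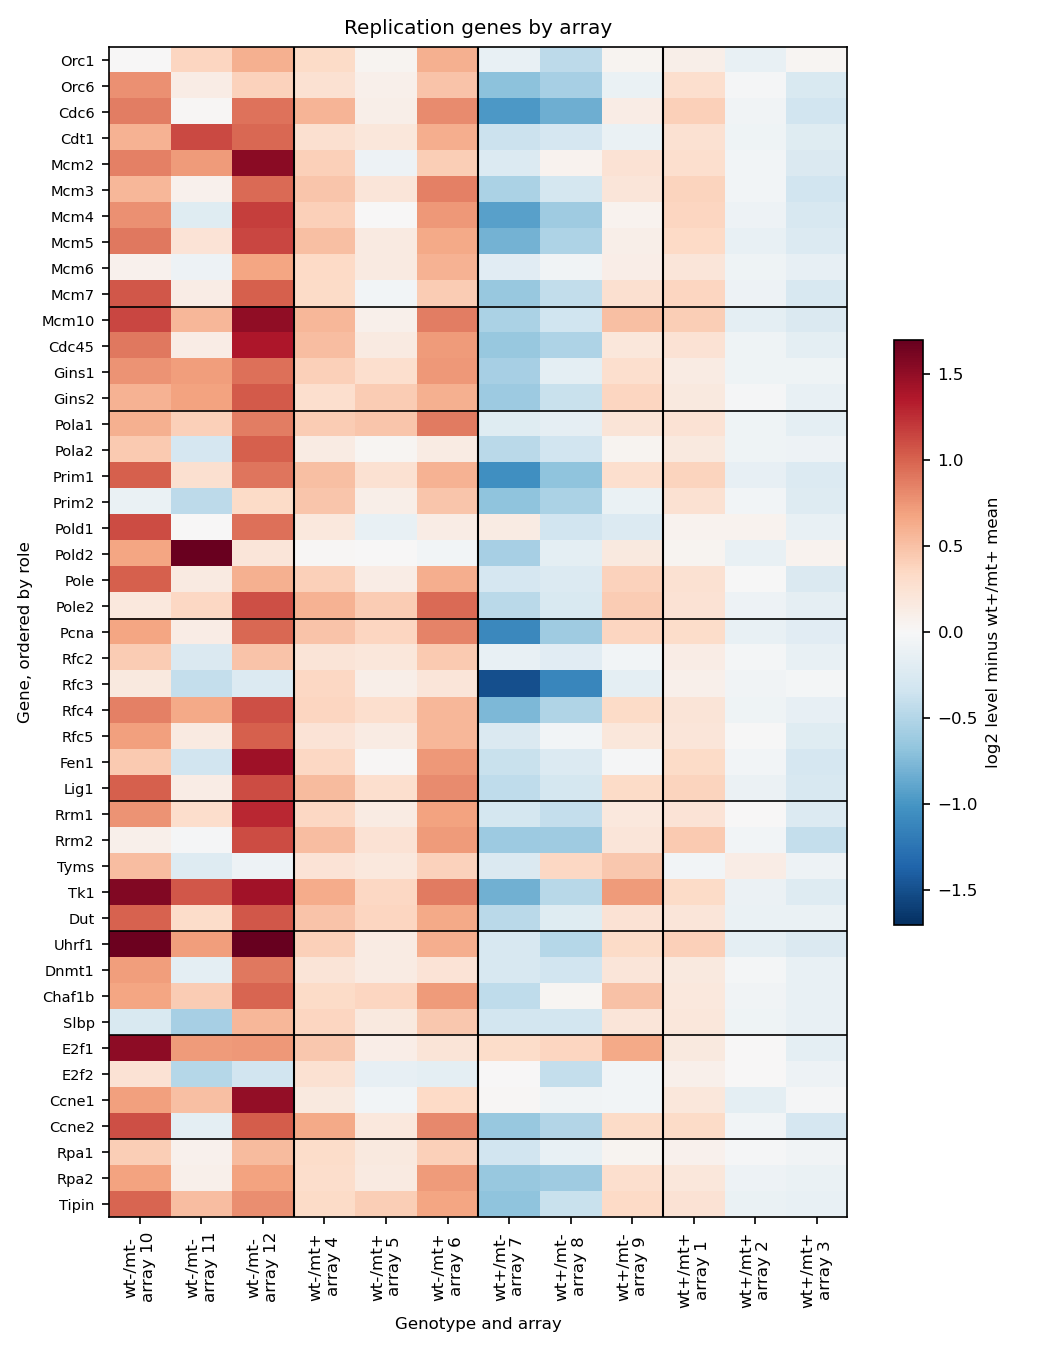
Log2 level of each of the 45 replication genes (rows, by role) on each of the 12 arrays (columns, by genotype) minus the gene's wt+/mt+ mean, with red above and blue below that mean and the darkest red also standing for values past the end of the scale. The wt-/mt- arrays 10 and 12 are red for nearly every gene with medians of 0.70 and 0.97, array 11 is paler with a median of 0.13, and wt+/mt- arrays 7 and 8 are blue with medians of -0.46 and -0.33.

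**Figure D2:**
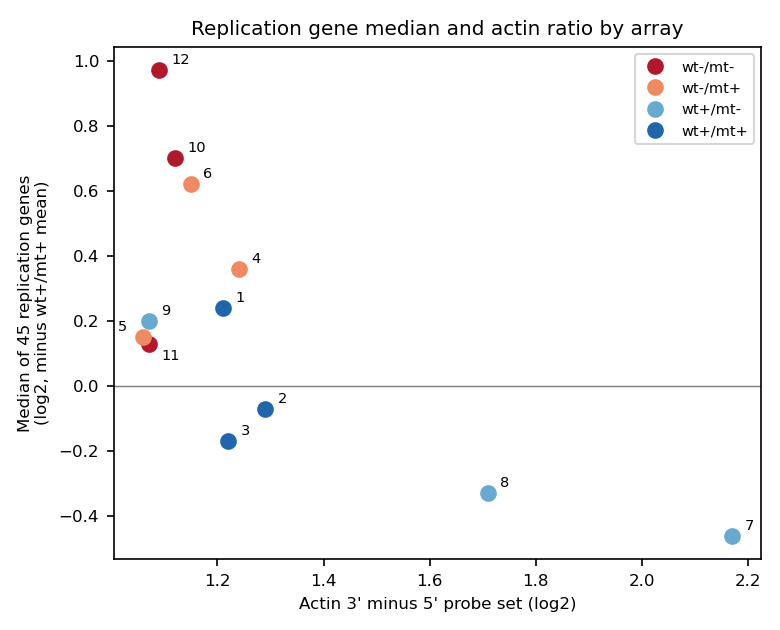
Median of the 45 replication genes relative to the wt+/mt+ mean (y axis, log2) against the actin 3′ minus 5′ probe set difference (x axis, log2), 1 point per array with its number. Arrays 7 and 8 lie apart at actin differences of 2.17 and 1.71 and have the lowest medians, and the other 10 arrays lie between 1.06 and 1.29.

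The comparison of wt-/mt- with wt+/mt+ cells asks what changed when the line lost both Foxo1 alleles. Of the 45 replication genes 15 rose and 0 fell (33.3% higher, where 12.2% of all tested genes were called higher and 22.1% in either direction), and 41 had a positive change. The median log2 change was 0.62, against 0.05 over all tested genes. In 17 of the 45 genes all 3 wt-/mt- arrays lay above all 3 wt+/mt+ arrays, which was so for 22.9% of all tested genes. By role, 2 of 10 licensing genes rose, 3 of 4 helicase activators, 1 of 8 polymerase genes, 1 of 7 clamp, clamp loader and Okazaki fragment genes, 3 of 5 nucleotide supply genes, 2 of 4 chromatin and histone genes, 2 of 4 G1/S regulators and 1 of 3 single-strand binding and fork protection genes. The count moved with single arrays: it was 29 without wt-/mt- array 11, 8 without wt-/mt- array 12, and 4 without wt+/mt+ array 2 or array 3. Of all tested genes 2535 were called with all 12 arrays, 3134 without array 11 and 2863 without array 12. Without wt+/mt+ array 2 or 3 they were 1254 and 1300. With 1 weight per genotype, which lets wt-/mt- cells have their own wider spread, the call was kept by 2 of the 45 genes, E2f1 and Ccne1. With arrays centred on their median it was kept by 9. Of all tested genes 866 and 2355 were called under these settings.

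The chromatin group held the gene with the greatest change. Uhrf1, which binds hemimethylated DNA behind the fork and recruits the maintenance methyltransferase, measured 11.60, 10.64 and 11.87 in wt-/mt- cells, 10.34, 10.07 and 10.55 in wt-/mt+ cells, 9.66, 9.45 and 10.26 in wt+/mt- cells, and 10.34, 9.76 and 9.68 in wt+/mt+ cells. Its 3 wt-/mt- arrays, array 11 being the lowest of them, lay above all 9 others, and the rise over wt+/mt+ was 1.44 (SE 0.32, adjusted p = 0.0101). A second, dimmer Uhrf1 probe set changed by 0.89. Chaf1b, a subunit of chromatin assembly factor 1, measured 8.47, 8.23 and 8.79 in wt-/mt- cells, 8.13, 8.17 and 8.52 in wt-/mt+ cells, 7.37, 7.83 and 8.30 in wt+/mt- cells, and 7.98, 7.74 and 7.67 in wt+/mt+ cells. The wt-/mt- arrays lay above the wt+/mt+ arrays but overlapped both other genotypes, with a rise of 0.70 (SE 0.22, adjusted p = 0.0451). Chaf1b lies on chromosome 16, whose genes had a median shift of 0.34 on array 12. Its call was lost with genes centred per chromosome and held in 7 of 20 alternatives. Dnmt1, the maintenance DNA methyltransferase, measured 12.28, 11.41 and 12.46 in wt-/mt- cells, 11.79, 11.71 and 11.80 in wt-/mt+ cells, 11.30, 11.25 and 11.77 in wt+/mt- cells, and 11.74, 11.54 and 11.44 in wt+/mt+ cells. Array 11 lay below all 3 wt+/mt+ arrays for Dnmt1, and its change of 0.48 (SE 0.24, adjusted p = 0.164) did not pass the test. Slbp, the histone mRNA stem-loop binding protein, changed by -0.08 (SE 0.25, adjusted p = 0.831).

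Among origin licensing genes, Mcm2, a subunit of the MCM helicase, measured 12.09, 11.96 and 12.77 in wt-/mt- cells, 11.64, 11.16 and 11.66 in wt-/mt+ cells, 11.01, 11.30 and 11.48 in wt+/mt- cells, and 11.52, 11.19 and 11.00 in wt+/mt+ cells. All 3 wt-/mt- arrays lay above the 9 others, and the rise over wt+/mt+ was 1.04 (SE 0.23, adjusted p = 0.0106). Mcm2 lies on chromosome 6, whose genes had a median shift of 0.33 on array 11 and 0.22 on array 12, and with genes centred per chromosome its rise was 0.83 and still called. Cdt1, which brings the helicase to origins, measured 11.48, 12.01 and 11.86 in wt-/mt- cells, 11.16, 11.08 and 11.51 in wt-/mt+ cells, 10.53, 10.60 and 10.78 in wt+/mt- cells, and 11.15, 10.82 and 10.69 in wt+/mt+ cells. Array 11 was the highest here, unlike for most of the genes, and array 10 lay just below wt-/mt+ array 6. Its rise over wt+/mt+ was 0.90 (SE 0.17, adjusted p = 0.00551). Mcm5, another helicase subunit, measured 12.97, 12.31 and 13.22 in wt-/mt- cells, 12.59, 12.23 and 12.72 in wt-/mt+ cells, 11.28, 11.55 and 12.18 in wt+/mt- cells, and 12.42, 11.96 and 11.85 in wt+/mt+ cells. Arrays 10 and 12 were high and array 11 lay within the wt+/mt+ range, and the change of 0.76 (SE 0.28, adjusted p = 0.071) did not pass the test. The other 7 licensing genes, Orc1, Orc6, Cdc6, Mcm3, Mcm4, Mcm6 and Mcm7, had changes between 0.22 (Mcm6) and 0.72 (Mcm7), none of them called.

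Of the 4 genes that switch the loaded helicase on, 3 rose. Mcm10, a scaffold for the start of unwinding, measured 9.95, 9.39 and 10.33 in wt-/mt- cells, 9.38, 8.91 and 9.69 in wt-/mt+ cells, 8.28, 8.48 and 9.33 in wt+/mt- cells, and 9.24, 8.65 and 8.57 in wt+/mt+ cells. Its wt-/mt- arrays lay above the wt+/mt+ arrays, and array 11 was below wt-/mt+ array 6, with a rise of 1.07 (SE 0.32, adjusted p = 0.0371). Gins1, a GINS subunit, measured 9.66, 9.61 and 9.83 in wt-/mt- cells, 9.30, 9.18 and 9.64 in wt-/mt+ cells, 8.33, 8.74 and 9.18 in wt+/mt- cells, and 9.04, 8.83 and 8.83 in wt+/mt+ cells. The 3 wt-/mt- arrays were close together and above all wt+/mt+ arrays, array 11 lay just below wt-/mt+ array 6, and the rise was 0.80 (SE 0.19, adjusted p = 0.0157). Gins2, another GINS subunit, rose by 0.77 (SE 0.22, adjusted p = 0.0313). Cdc45, the helicase cofactor, measured 9.42, 8.66 and 9.90 in wt-/mt- cells, 9.05, 8.68 and 9.25 in wt-/mt+ cells, 7.89, 8.01 and 8.72 in wt+/mt- cells, and 8.77, 8.46 and 8.37 in wt+/mt+ cells. Array 11 overlapped the wt+/mt+ arrays for Cdc45, and its change of 0.79 (SE 0.31, adjusted p = 0.0825) did not pass the test.

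Polymerase genes differed among themselves. Pold2, the small subunit of polymerase delta, measured 11.09, 12.10 and 10.62 in wt-/mt- cells, 10.44, 10.43 and 10.37 in wt-/mt+ cells, 9.86, 10.26 and 10.58 in wt+/mt- cells, and 10.46, 10.30 and 10.48 in wt+/mt+ cells. Array 11 alone was more than 1 log2 unit above array 12, and array 12 lay just above wt+/mt- array 9. Although all 3 wt-/mt- arrays lay above the 9 others, the change of 0.85 (SE 0.30, adjusted p = 0.0645) did not pass the test. Prim1, the catalytic primase subunit, measured 11.54, 10.79 and 11.43 in wt-/mt- cells, 11.03, 10.78 and 11.11 in wt-/mt+ cells, 9.48, 9.83 and 10.81 in wt+/mt- cells, and 10.90, 10.38 and 10.29 in wt+/mt+ cells. Array 11 lay inside the wt+/mt+ range, and the change was 0.73 (SE 0.32, adjusted p = 0.115). Pold1, the catalytic subunit of polymerase delta, measured 12.66, 11.55 and 12.49 in wt-/mt- cells, 11.73, 11.43 and 11.67 in wt-/mt+ cells, 11.69, 11.22 and 11.32 in wt+/mt- cells, and 11.61, 11.61 and 11.43 in wt+/mt+ cells. Arrays 10 and 12 were about 1 log2 unit above wt+/mt+ and array 11 was at its level, with a change of 0.68 (SE 0.25, adjusted p = 0.0692). A second bright Pold1 probe set changed by 1.23, and with the mean of all probe sets of a gene Pold1 was called higher. With 1 probe set per gene, the polymerase gene that was called was Pola1, the catalytic subunit of polymerase alpha, with a rise of 0.62 (SE 0.18, adjusted p = 0.03). Pola2, Pole and Pole2 had changes of 0.39, 0.59 and 0.54, and Prim2, the regulatory primase subunit, one of -0.08, none of them called.

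Among clamp and joining genes, Rfc4, a subunit of the loader that opens PCNA, measured 11.08, 10.87 and 11.31 in wt-/mt- cells, 10.58, 10.51 and 10.78 in wt-/mt+ cells, 9.46, 9.71 and 10.54 in wt+/mt- cells, and 10.44, 10.15 and 10.08 in wt+/mt+ cells. All 3 wt-/mt- arrays lay above the 9 others, with a rise of 0.86 (SE 0.24, adjusted p = 0.0266). Rfc4 also lies on chromosome 16, and with genes centred per chromosome its rise was 0.70 and still called. Lig1, the ligase that joins Okazaki fragments, measured 11.60, 10.70 and 11.69 in wt-/mt- cells, 11.12, 10.86 and 11.38 in wt-/mt+ cells, 10.15, 10.28 and 10.90 in wt+/mt- cells, and 10.96, 10.48 and 10.31 in wt+/mt+ cells. Array 11 overlapped the wt+/mt+ arrays, and the change of 0.75 (SE 0.29, adjusted p = 0.0834) did not pass the test. Rfc5, another loader subunit, measured 10.54, 9.99 and 10.85 in wt-/mt- cells, 10.07, 9.98 and 10.41 in wt-/mt+ cells, 9.60, 9.79 and 10.03 in wt+/mt- cells, and 10.05, 9.83 and 9.63 in wt+/mt+ cells. Again array 11 overlapped wt+/mt+, and the change was 0.62 (SE 0.21, adjusted p = 0.0569). Pcna, the sliding clamp and a common marker of proliferation, chosen after its values were seen, changed by 0.59 (SE 0.34, adjusted p = 0.221). Rfc2, Rfc3 and Fen1 had changes of 0.23, -0.15 and 0.53, and none was called.

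Nucleotide supply held the second greatest change. Tk1, the thymidine kinase that salvages thymidine in S phase, measured 10.58, 10.07 and 10.44 in wt-/mt- cells, 9.64, 9.36 and 9.89 in wt-/mt+ cells, 8.19, 8.54 and 9.73 in wt+/mt- cells, and 9.33, 8.91 and 8.79 in wt+/mt+ cells. The 3 wt-/mt- arrays lay above the 9 others with array 11 the lowest of them, and the rise was 1.35 (SE 0.33, adjusted p = 0.0164). Dut, which removes dUTP, measured 12.69, 12.00 and 12.75 in wt-/mt- cells, 12.17, 12.05 and 12.33 in wt-/mt+ cells, 11.23, 11.49 and 11.93 in wt+/mt- cells, and 11.90, 11.58 and 11.58 in wt+/mt+ cells. Its wt-/mt- arrays lay above wt+/mt+, with array 11 below all 3 wt-/mt+ arrays, and the rise was 0.79 (SE 0.22, adjusted p = 0.0259). Rrm1, the large subunit of ribonucleotide reductase, measured 11.64, 11.17 and 12.15 in wt-/mt- cells, 11.22, 11.01 and 11.56 in wt-/mt+ cells, 10.57, 10.46 and 11.05 in wt+/mt- cells, and 11.10, 10.88 and 10.64 in wt+/mt+ cells. Its wt-/mt- arrays lay above wt+/mt+, with array 11 inside the wt-/mt+ range. It rose by 0.78 (SE 0.25, adjusted p = 0.046), but a second bright Rrm1 probe set changed by -0.08, and the call held in 3 of 20 alternatives. Tyms, thymidylate synthase, changed by 0.07 and Rrm2 by 0.39, neither called.

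Among regulators of the G1/S step, E2f1, a transcription factor that activates S phase genes, measured 9.02, 8.22 and 8.24 in wt-/mt- cells, 7.96, 7.61 and 7.72 in wt-/mt+ cells, 7.81, 7.87 and 8.15 in wt+/mt- cells, and 7.66, 7.51 and 7.33 in wt+/mt+ cells. All 3 wt-/mt- arrays lay above the 9 others, array 10 being the highest and arrays 11 and 12 lying just above wt+/mt- array 9. The rise of 0.99 (SE 0.20, adjusted p = 0.00785) was called in 20 of 20 alternatives. A second E2f1 probe set, with a mean level of 7.90 against 7.92, changed by 0.60. Against wt-/mt+ cells that second probe set changed by 0.37, where the one used here changed by 0.73. Ccne1, the cyclin that activates CDK2 at the end of G1, measured 9.53, 9.34 and 10.33 in wt-/mt- cells, 9.00, 8.79 and 9.17 in wt-/mt+ cells, 8.85, 8.77 and 8.78 in wt+/mt- cells, and 9.02, 8.66 and 8.81 in wt+/mt+ cells. Again the wt-/mt- arrays lay above all others, array 12 being the highest, with a rise of 0.90 (SE 0.22, adjusted p = 0.0157). Ccne2, the other E-type cyclin, measured 11.13, 9.87 and 11.06 in wt-/mt- cells, 10.68, 10.21 and 10.85 in wt-/mt+ cells, 9.38, 9.53 and 10.35 in wt+/mt- cells, and 10.35, 9.99 and 9.74 in wt+/mt+ cells. Array 11 was below wt+/mt+ array 1 for Ccne2, and its change of 0.66 (SE 0.35, adjusted p = 0.192) did not pass the test. E2f2 had a change of -0.19, also not called.

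At the fork, Tipin, the partner of Timeless in fork protection, measured 12.42, 11.96 and 12.22 in wt-/mt- cells, 11.75, 11.85 and 12.10 in wt-/mt+ cells, 10.75, 11.05 and 11.77 in wt+/mt- cells, and 11.68, 11.32 and 11.30 in wt+/mt+ cells. The wt-/mt- arrays lay above all wt+/mt+ arrays and overlapped wt-/mt+, with a rise of 0.77 (SE 0.23, adjusted p = 0.0385). Rpa2, a subunit of the single-strand binding protein RPA, measured 10.22, 9.61 and 10.22 in wt-/mt- cells, 9.83, 9.68 and 10.25 in wt-/mt+ cells, 8.88, 8.93 and 9.81 in wt+/mt- cells, and 9.72, 9.44 and 9.42 in wt+/mt+ cells. Array 11 overlapped wt+/mt+, and the change was 0.49 (SE 0.26, adjusted p = 0.192). Rpa1, the large RPA subunit, measured 13.10, 12.75 and 13.22 in wt-/mt- cells, 12.99, 12.85 and 13.09 in wt-/mt+ cells, 12.35, 12.55 and 12.72 in wt+/mt- cells, and 12.75, 12.66 and 12.62 in wt+/mt+ cells. The wt-/mt- arrays lay above wt+/mt+, array 11 by less than the decimals shown, and the change of 0.34 (SE 0.14, adjusted p = 0.0928) did not pass the test.

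**Figure D3:**
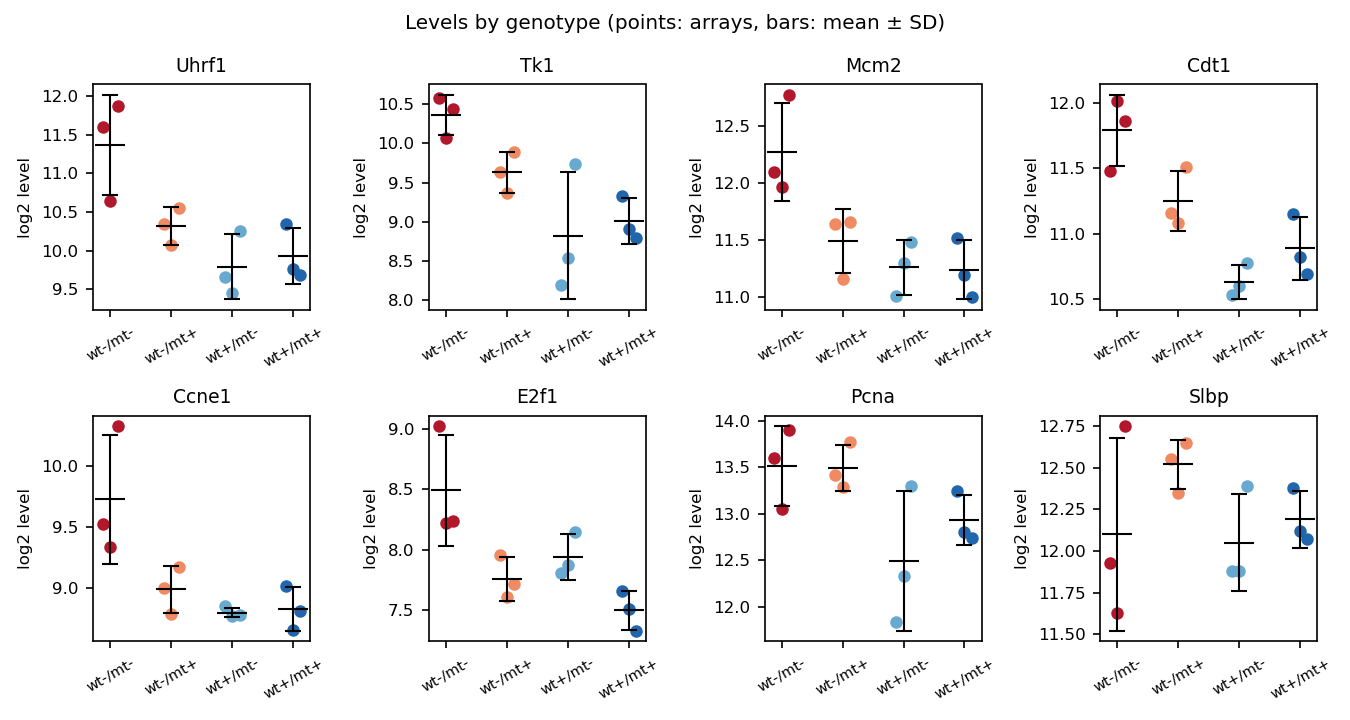
Log2 levels of 8 genes by genotype, with 1 point per array and bars for the mean ± SD of 3 arrays. In Uhrf1, Tk1, Mcm2, Ccne1 and E2f1 the 3 wt-/mt- points lie above all 9 others, in Cdt1 one of them lies below the highest wt-/mt+ point, and in Pcna and Slbp the genotypes overlap.

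Set against wt+/mt- cells, which keep the wild-type allele alone, wt-/mt- cells show the loss of the wild-type allele in the absence of the mutant one. Here 22 of 45 genes rose and 0 fell (48.9%, where 6.35% of all tested genes were called higher and 14.6% in either direction), 43 had a positive change, and the median was 0.89, against -0.01 over all tested genes. In 18 genes the 3 wt-/mt- arrays lay above the 3 wt+/mt- arrays, which was so for 11.8% of all tested genes. Uhrf1 rose by 1.58 (SE 0.32, adjusted p = 0.00964), Tk1 by 1.54 (SE 0.33, adjusted p = 0.0131), Prim1 by 1.21 (SE 0.32, adjusted p = 0.0285) and Mcm10 by 1.19 (SE 0.32, adjusted p = 0.0336). Rfc4 rose by 1.18 (SE 0.24, adjusted p = 0.01), and Cdc6, which loads the helicase together with CDT1, by 1.16 (SE 0.33, adjusted p = 0.0411). Cdc6 measured 9.85, 9.00 and 9.90 in wt-/mt- cells, 9.56, 9.08 and 9.78 in wt-/mt+ cells, 8.00, 8.15 and 9.11 in wt+/mt- cells, and 9.38, 8.92 and 8.66 in wt+/mt+ cells. Its lowest values were those of arrays 7 and 8, and wt+/mt- array 9 lay above wt-/mt- array 11. By role the 22 were Orc6, Cdc6, Cdt1, Mcm2, Mcm5 and Mcm7 of the 10 licensing genes, all 4 helicase activators, Pola1, Prim1, Pold1 and Pold2 of the 8 polymerase genes, Rfc4 of the 7 clamp and joining genes, Rrm1, Tk1 and Dut of the 5 nucleotide genes, Uhrf1 of the 4 chromatin genes, Ccne1 of the 4 regulators, and Rpa1 and Tipin at the fork.

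This second count moved with wt+/mt- arrays 7 and 8, the arrays with the high actin ratios. Leaving out both left array 9 as the single wt+/mt- array, which was assumed to vary like the other genotypes. In that fit 0 of 45 genes were called, against 118 of all tested genes, and the median change was 0.42, and with the actin ratio as a covariate 0 were called with a median of 0.50. Without array 7 or array 8 alone 4 genes were called, in both cases Cdt1, Gins1, Rfc4 and Uhrf1. Of all tested genes 1670 were called with all 12 arrays, 700 without array 7 and 664 without array 8. With the actin ratio as a covariate 287 of them were. The count of the 45 was 36 without wt-/mt- array 11, 30 without wt+/mt- array 9 and 13 without wt-/mt- array 12. It was 1, Cdt1, with 1 weight per genotype. Of all tested genes 2536, 1608, 1807 and 399 were called in these fits, in that order. The part of RNA integrity in these changes was not tested beyond these values.

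Set against wt-/mt+ cells, which keep the mutant allele alone, wt-/mt- cells show the loss of the mutant allele in the absence of the wild-type one. In this comparison 5 of 45 genes rose and 0 fell (11.1%, where 9.75% of all tested genes were called higher and 20.8% in either direction), a share near that of all genes, and the median was 0.23, against 0.01. The 5 were Uhrf1 (1.05, SE 0.32, adjusted p = 0.0381), Mcm2 (0.79, SE 0.23, adjusted p = 0.0337), Ccne1 (0.75, SE 0.22, adjusted p = 0.0344), E2f1 (0.73, SE 0.20, adjusted p = 0.0292) and Cdt1 (0.54, SE 0.17, adjusted p = 0.0481). Uhrf1, Mcm2, Ccne1 and Cdt1 were thereby called against each of the other genotypes, and E2f1 against all but wt+/mt- (0.55, SE 0.20, adjusted p = 0.0965). The call against wt-/mt+ cells held in 9 of 20 alternatives for Uhrf1, 11 for Mcm2, 12 for Ccne1, 15 for E2f1 and 4 for Cdt1. Pcna changed by 0.02, Cdc6 by 0.11 and Mcm3 by 0.02, so for these genes the means of wt-/mt- and wt-/mt+ cells were close. Leaving out wt-/mt+ array 5 left 0 genes called and arrays 4 or 6 left 1 each (E2f1 and Cdt1). Leaving out wt+/mt+ array 2 or 3, wt+/mt- array 7 or 8, or both of the last, left 2, 2, 3, 2 and 1 (Tk1). Without wt-/mt- array 12, 3 genes were called higher (Ccne1, E2f1 and Pold2) and 2 lower (Prim2 and Slbp). With 1 weight per genotype 0 were called, with the mean of all probe sets of a gene 3, and with genes centred per chromosome 2 (E2f1 and Uhrf1). Of all tested genes 2386 were called with all 12 arrays, and 1118, 1443 and 1419 without wt-/mt+ arrays 5, 4 and 6. They were 1884 and 1943 without wt+/mt+ array 2 or 3, and 2209 and 1975 without wt+/mt- array 7 or 8. Without wt-/mt- array 12 they were 2732. Weights gave 923, the mean of probe sets 2212 and centring per chromosome 2450.

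**Figure D4:**
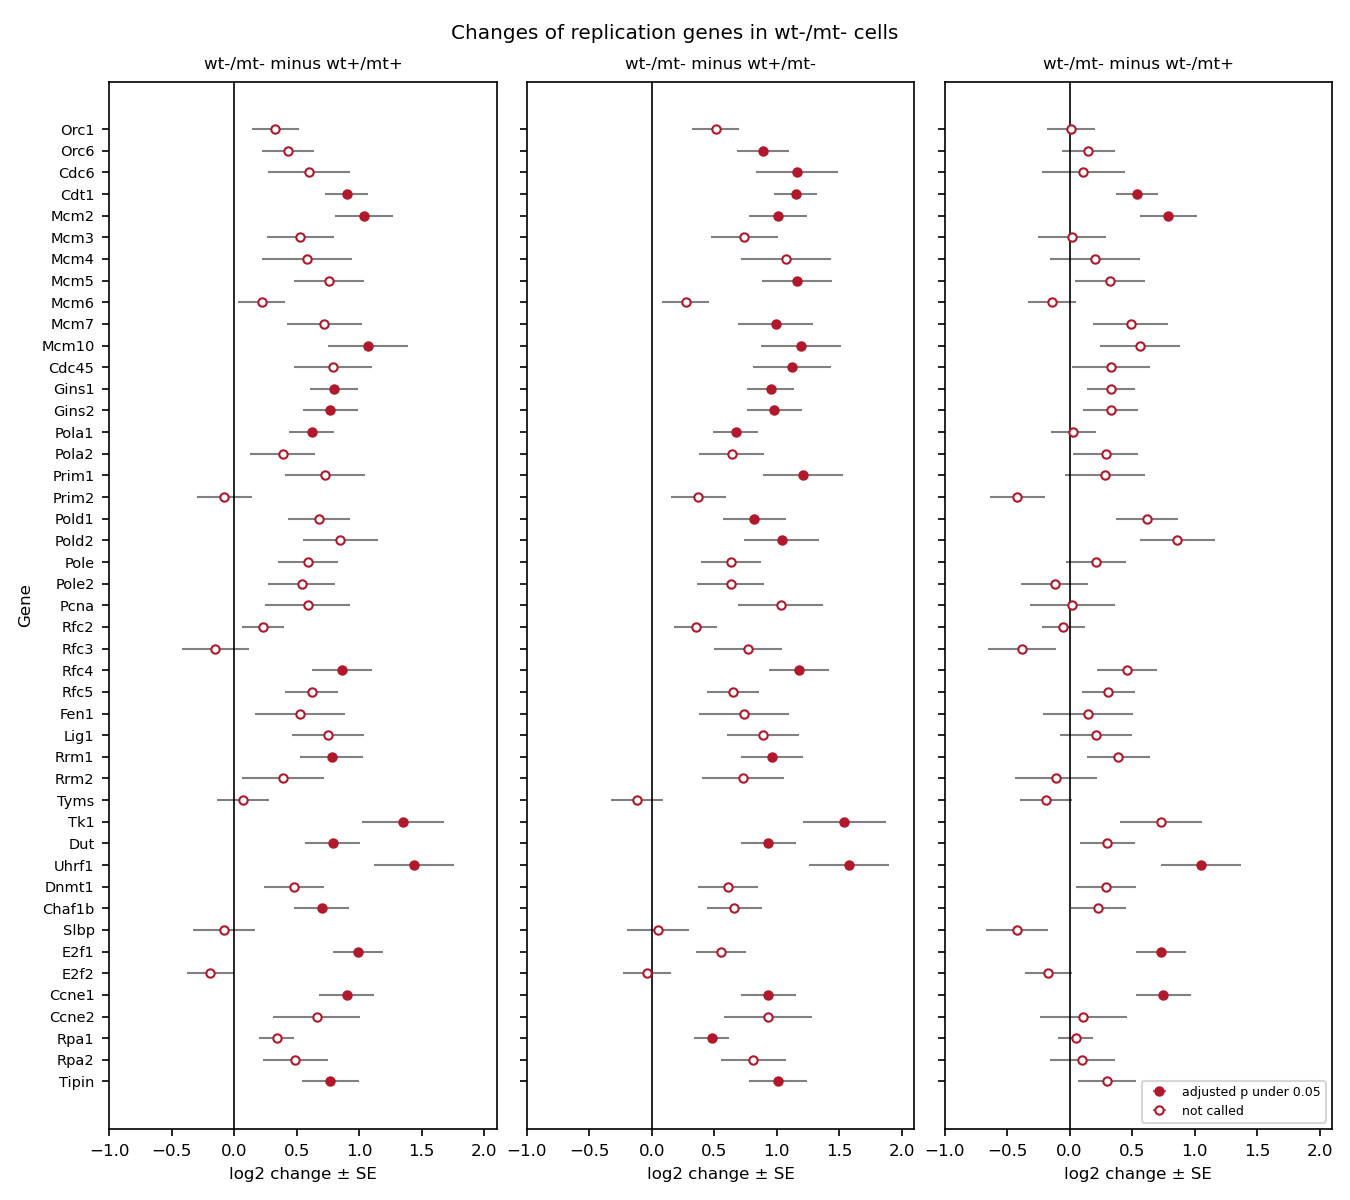
Log2 change ± SE of each of the 45 replication genes in wt-/mt- cells minus wt+/mt+ cells (left), minus wt+/mt- cells (middle) and minus wt-/mt+ cells (right), with filled points at an adjusted p under 0.05. The 15, 22 and 5 filled points all lie right of 0, and medians are 0.62, 0.89 and 0.23.

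With the mutant allele present, wt-/mt+ cells, which lost the wild-type allele, were set against wt+/mt+ cells. This gave 0 calls among the 45 genes (limma), where 0% of all tested genes were called. At an unadjusted p under 0.05 there were 4 of the 45 (8.89%), against 3.6% of all tested genes. The changes were nonetheless positive in 43 of 45 genes, with a median of 0.38 against 0.04 over all tested genes, and in 14 genes the 3 wt-/mt+ arrays lay above the 3 wt+/mt+ arrays, which was so for 14.8% of all tested genes. The 4 were Pola1 (0.59, SE 0.18), Pole2 (0.66), Dut (0.50) and Gins1 (0.47), each with an adjusted p of 1. Pola1 measured 9.89, 9.68 and 10.15 in wt-/mt- cells, 9.71, 9.75 and 10.16 in wt-/mt+ cells, 9.08, 9.13 and 9.50 in wt+/mt- cells, and 9.52, 9.21 and 9.11 in wt+/mt+ cells. The wt-/mt+ arrays were as high as the wt-/mt- arrays for Pola1 and above both genotypes with a wild-type allele.

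With the wild-type allele present, wt+/mt- cells, which lost the mutant allele, were set against wt+/mt+ cells. This also gave 0 calls (limma), where 0.183% of all tested genes were called. At an unadjusted p under 0.05 there were 2 of the 45 genes (4.44%), against 14.9% of all tested genes. The median change was -0.18, against 0.04 over all tested genes, and it was 0.20 with array 9 as the single wt+/mt- array and 0.04 with the actin ratio as a covariate. The 2 genes were Orc6, a subunit of the origin recognition complex, at -0.46 (SE 0.21, adjusted p = 0.334), and Rfc3, a clamp loader subunit, at -0.92 (SE 0.27, adjusted p = 0.15). Rfc3 measured 9.79, 9.22 and 9.40 in wt-/mt- cells, 9.98, 9.73 and 9.84 in wt-/mt+ cells, 8.13, 8.52 and 9.46 in wt+/mt- cells, and 9.71, 9.57 and 9.60 in wt+/mt+ cells. It was lowest on arrays 7 and 8, below every other array by over 0.5 log2 units, while array 9 lay just below the wt+/mt+ arrays. Rfc3 was called lower without array 9, and with 1 weight per genotype, where 15 and 950 of all tested genes were called.

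The mutant allele alone was set against the wild-type allele alone (wt-/mt+ against wt+/mt-). No gene of the 45 was called (0 by limma, where 0.0873% of all tested genes were called), and 27 (60%) were at an unadjusted p under 0.05, against 16.4% of all tested genes, while 44 had a positive change and the median was 0.62, against 0 over all tested genes. In 14 genes the 3 wt-/mt+ arrays lay above the 3 wt+/mt- arrays, which was so for 14.2% of all tested genes. Rfc3 differed by 1.15 (SE 0.27, adjusted p = 0.102), Cdc6 by 1.06 (SE 0.33, adjusted p = 0.171) and Pcna by 1.01 (SE 0.34, adjusted p = 0.182). Pcna measured 13.60, 13.05 and 13.90 in wt-/mt- cells, 13.42, 13.29 and 13.77 in wt-/mt+ cells, 11.83, 12.33 and 13.30 in wt+/mt- cells, and 13.24, 12.80 and 12.74 in wt+/mt+ cells. Wt+/mt- array 9 lay within the wt-/mt+ range, and arrays 7 and 8 lay below every other array. With array 9 as the single wt+/mt- array the median was 0.20 with 0 calls. With the actin ratio as a covariate it was 0.30 with 0 calls, also over all tested genes. Without array 9, which leaves arrays 7 and 8, 7 of the 45 genes were called, against 118 of all tested genes. Under 1 weight per genotype the count was 9 (Cdc6, Cdt1, Dut, Mcm5, Orc6, Pola1, Prim2, Rfc3 and Rpa1), against 835 of all tested genes.

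The interaction asks whether the change after loss of both alleles differs from the sum of the changes after each single loss. It was called in 0 of 45 genes (limma), where 3.14% of all tested genes were called. At an unadjusted p under 0.05 there were 6 of the 45 (13.3%), against 18.4% of all tested genes. The median was 0.46, against -0.05 over all tested genes, and it was 0.00 with array 9 as the single wt+/mt- array and 0.16 with the actin ratio as a covariate. The 6 genes were Uhrf1 (1.18, SE 0.45, adjusted p = 0.192), Pold2 (1.04), Cdt1 (0.79, SE 0.24, adjusted p = 0.115), Rfc4 (0.78), Ccne1 (0.78) and Mcm2 (0.76). Leaving out wt+/mt- array 9 or wt-/mt- array 11 gave 2 calls each (Rfc4 and Tk1, and Pold1 and Uhrf1), and leaving out wt-/mt- array 10 or 12 gave 1 each (Cdt1, and Pold2). Of all tested genes 327, 994, 930 and 772 were called in these fits, in that order. The F test over the 4 genotypes called 15 of the 45 genes, against 19.2% of all tested genes. For 7 genes, Mcm2, Pold2, Rfc4, Tk1, Uhrf1, E2f1 and Ccne1, all 3 wt-/mt- arrays lay above all 9 others, which was so for 7.09% of all tested genes.

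A wider list of 71 other replication and G1/S genes, of which 68 were tested, was counted beside the 45. After loss of both alleles 13 of the 68 rose and 0 fell (19.1% higher, where 12.2% of all tested genes were called higher), with a median of 0.42. Timeless, the fork protection partner of Tipin, measured 9.58, 9.16 and 9.42 in wt-/mt- cells, 8.59, 8.38 and 8.86 in wt-/mt+ cells, 8.22, 8.31 and 8.71 in wt+/mt- cells, and 8.42, 8.28 and 8.21 in wt+/mt+ cells. Its wt-/mt- arrays lay above all 9 others, and it rose by 1.08 over wt+/mt+ (SE 0.17, limma adjusted p = 0.00184), by 0.97 over wt+/mt- (adjusted p = 0.00443) and by 0.78 over wt-/mt+ (adjusted p = 0.00895). E2f7, a repressor of E2F targets, rose by 1.12 over wt+/mt+ (SE 0.36, adjusted p = 0.0454) and by 1.38 over wt+/mt- (adjusted p = 0.0281). Its level on wt-/mt- array 11 was 8.33, below the 8.39 on wt+/mt- array 9. Recql4, a helicase that acts at origins, rose by 0.86 over wt+/mt+ (SE 0.17, adjusted p = 0.00727). Against wt+/mt- cells 14 of the 68 rose and 0 fell (20.6% higher, against 6.35% of all tested genes), among them Ccna2, the S phase cyclin, by 1.03 (SE 0.25, adjusted p = 0.0222), and 0 rose with array 9 as the single wt+/mt- array or with the actin ratio as a covariate. Against wt-/mt+ cells 7 rose and 2 fell (10.3% higher, near the 9.75% of all tested genes). Dck, deoxycytidine kinase, fell by 0.99 (SE 0.26, adjusted p = 0.021), and Rrm2b, the p53-inducible reductase subunit, by 0.81 (SE 0.24, adjusted p = 0.037). Rrm2b measured 10.27, 9.67 and 9.02 in wt-/mt- cells, against 10.32, 10.56 and 10.51 in wt-/mt+ cells. In the comparisons without wt-/mt- cells 0 of the 68 were called (limma), and the interaction gave 0. At an unadjusted p under 0.05, loss of the wild-type allele with the mutant allele present gave 3 (4.41%, against 3.6% of all tested genes). Loss of the mutant allele with the wild-type allele present also gave 3 (4.41%, against 14.9%). Wt-/mt+ against wt+/mt- cells gave 21 (30.9%, against 16.4%), and the interaction 6 (8.82%, against 18.4%). The counts of the 68 moved with single arrays as well, as did those given above for all tested genes. After loss of both alleles 3 rose without wt+/mt+ array 2 or 3, 6 without array 1, 8 without wt-/mt- array 12 and 23 without array 11, and 3 rose with 1 weight per genotype. Against wt+/mt- cells 2 rose without array 7, 3 without array 8, 26 without array 9, 6 without wt-/mt- array 12, 28 without array 11 and 9 without wt+/mt+ array 2. Against wt-/mt+ cells 3 rose without wt-/mt+ array 4, wt+/mt- array 8 or wt+/mt+ array 2 or 3, and 1 without wt-/mt+ array 5 or 6. The count of 2 that fell there became 0 without wt-/mt+ array 4, 5 or 6, 1 without wt+/mt- array 8 or wt+/mt+ array 2 or 3, and 4 or 5 without wt-/mt- array 10 or 11.

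**Figure D5:**
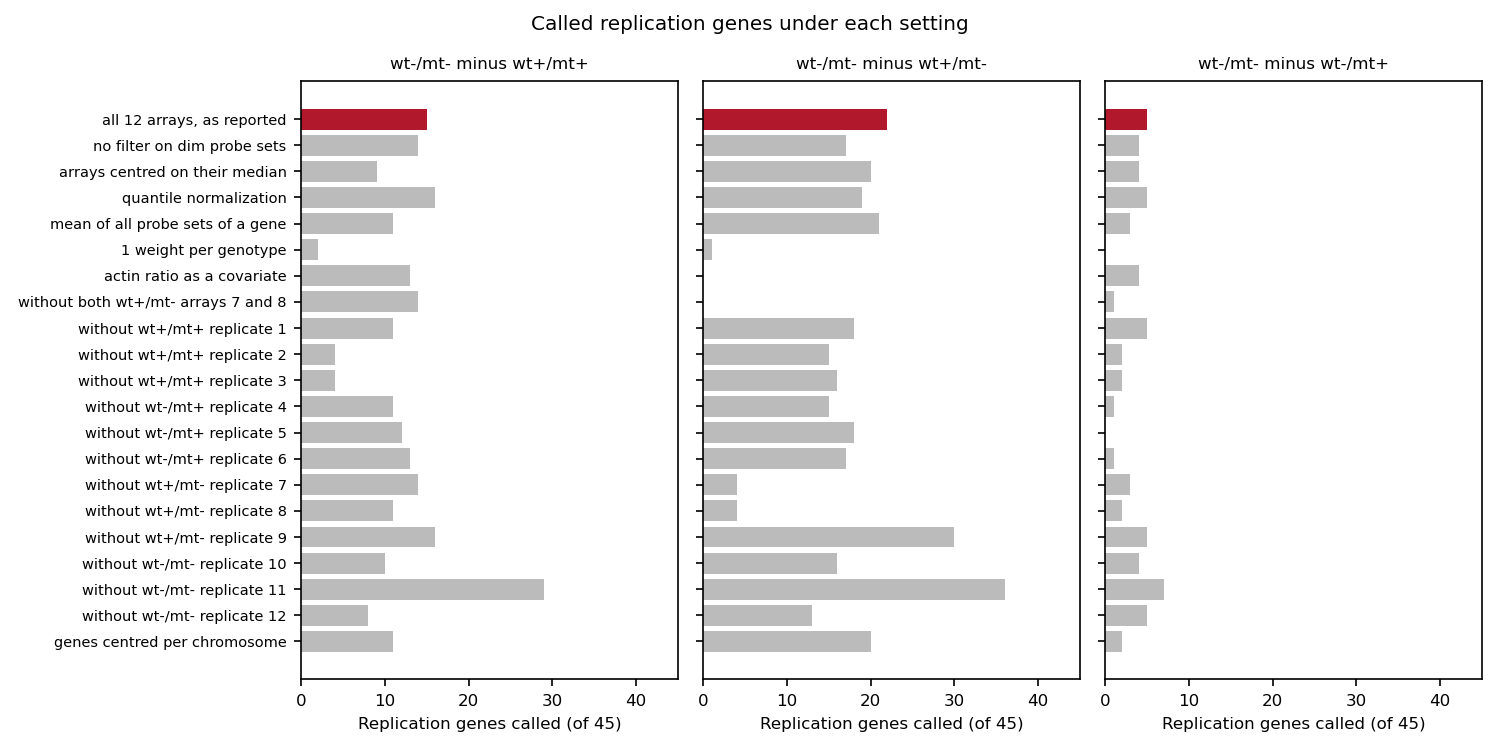
Number of the 45 replication genes called (x axis) in wt-/mt- cells against each other genotype under the reported analysis (red) and 20 alternatives (grey). Against wt+/mt+ the counts run between 2 and 29, against wt+/mt- between 0 and 36 with 0 where array 9 is the single wt+/mt- array, and against wt-/mt+ between 0 and 7.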

How the data were processed

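RNA of 12 samples of an edited lymphoma line was measured on Affymetrix mouse arrays. Per the submitters' processing notes, the authors used RMA (version not given in the sources used here) to make the deposited log2 values, 1 per probe set. Base 2 is what RMA usually writes and fits the range of 3.09 to 15.6. RMA normalizes across arrays, so a shift shared by most genes is largely removed. Scanner files were not used here.

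Of 45101 probe sets, 34958 had 1 gene in GEO's platform annotation, 932 several and 9211 none. Symbols were updated through a RefSeq table of GRCm38.p6. A gene was read from the probe set that was brightest on average, and the 11458 genes above the array median on at least 3 arrays entered limma 3.58.1 (R 4.3.3), where lmFit and eBayes fitted a mean for each genotype to the 12 arrays, with Benjamini-Hochberg adjustment over all of them and a threshold of 0.05. Errors are limma's SE, or SD over 3 arrays. The fit was also run on simulated data with independent noise for each gene. Those data lack the shifts that the replication genes share within an array, so they do not bear on the counts of called genes.

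The members and gene lists were chosen with earlier results of these data known. Named with all array values were, per role, up to 3 members with the largest change after loss of both alleles. In each other comparison up to 6 called members were added. Of other genes up to 4 called per direction were named, not all of them with every array value. Pcna, Rfc3, Pola1, Orc6 and other members named outside this rule were chosen after their values were seen. Probe sets ending in _s_at or _x_at, which can bind related transcripts, stood for 11 members. The brighter probe sets of 5 members differed in sign after loss of both alleles. The 20 alternatives covered the filter, array centring, quantile normalization, the mean of probe sets, 1 weight per genotype, the actin ratio as a covariate, arrays 7 and 8, each array left out in turn, and centring per chromosome, which was chosen after seeing the data. The number of arrays, the wider spread in wt-/mt- cells and unstated cultures and clones limit the precision.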

Additional observations from a re-analysis of the deposited data

Results flagged for a closer look

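Foxo1 itself, the targeted gene, was the result that differed between groups. The change of its probe set after loss of both alleles was not the sum of the changes after each single loss, with an interaction of -1.71 (log2, SE 0.33, limma adjusted p = 0.0226). Its levels were 9.99 ± 0.52 in wt-/mt- cells, 11.46 ± 0.26 in wt-/mt+ cells, 11.87 ± 0.26 in wt+/mt- cells and 11.64 ± 0.08 in wt+/mt+ cells (SD, n = 3 arrays each). A second Foxo1 probe set gave an interaction of -1.65. No replication gene differed in this way by the limma test (0 of 45, with 6 at an unadjusted p under 0.05).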

How the results depend on the processing

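None of the 42 gene-level calls changed direction under the 20 alternatives, and the cause of the lost calls was not tested. The counts over all tested genes moved too. With 1 weight per genotype they went from 2535 to 866 after loss of both alleles. Against wt+/mt- cells they went from 1670 to 399, and against wt-/mt+ cells from 2386 to 923. After loss of both alleles the 15 calls became 9 with arrays centred on their median, 2 with 1 weight per genotype, and between 4 and 29 with 1 array left out. Against wt+/mt- cells the 22 became 1 with weights, 0 with the actin covariate, 0 without arrays 7 and 8 (which leaves array 9 as the single wt+/mt- array), and between 4 and 36 with 1 array left out. Against wt-/mt+ cells the 5 became 3 with the mean of probe sets, 0 with weights, 1 without arrays 7 and 8, 2 with centring per chromosome, and between 0 and 7 with 1 array left out. The counts of 0 became 1 (weights) and 0 to 1 (1 array left out) for loss of the mutant allele with the wild-type allele present, 9 (weights) and 0 to 7 for wt-/mt+ against wt+/mt- cells, and 0 to 2 for the interaction, and stayed at 0 under all 20 for loss of the wild-type allele with the mutant allele present. No paired analysis was possible because the array numbers run on from 1 to 12 and no number is shared between genotypes. With 3 arrays per genotype, and a wider spread in wt-/mt- cells, changes that were not called cannot be read as absent.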

Other observations

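Some called genes of the wider replication and G1/S list stood highest on wt-/mt- array 11. On that array 40 of the 45 replication genes were the lowest of the genotype. However, array 11 was also the highest wt-/mt- array for 36.5% of all tested genes. How many of the wider list stood highest there was not counted. Cdkn1b, the CDK inhibitor p27, measured 9.13, 11.41 and 10.00 in wt-/mt- cells, 8.98, 8.68 and 8.61 in wt-/mt+ cells, 9.48, 9.58 and 9.55 in wt+/mt- cells, and 9.02, 9.70 and 9.87 in wt+/mt+ cells, and was higher than in wt-/mt+ by 1.42 (SE 0.44, limma adjusted p = 0.0426). Ccnd1, cyclin D1, measured 7.12, 9.07 and 7.39 in wt-/mt- cells, 6.59, 6.48 and 6.75 in wt-/mt+ cells, 7.14, 6.96 and 7.13 in wt+/mt- cells, and 6.45, 6.61 and 6.46 in wt+/mt+ cells, and was higher than in wt+/mt+ by 1.35 (SE 0.38, adjusted p = 0.0286) and than in wt-/mt+ by 1.25 (adjusted p = 0.0394). For Cdkn1b, array 10 lay inside the wt+/mt+ range. Foxo1 was lowest on array 11, at 9.39 against 10.23 and 10.34 on the other wt-/mt- arrays. Any link between these values was not tested. Dctpp1, a dCTP pyrophosphatase, measured 11.22, 11.46 and 11.24 in wt-/mt- cells, against 9.90, 10.54 and 10.73 in wt+/mt- cells, and rose by 0.92 (SE 0.18, adjusted p = 0.00865). Shmt1, a folate enzyme for thymidylate, measured 10.14, 10.55 and 10.01 in wt-/mt- cells, against 9.61, 9.51 and 9.75 in wt-/mt+ cells, and rose by 0.61 (SE 0.20, adjusted p = 0.0493).

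Chromosome medians differed between the 3 wt-/mt- arrays. Relative to the wt+/mt+ mean, tested genes of chromosome 12 had a median of -0.66 on array 10 and those of chromosome 1 one of -0.31, against 0.03 and -0.01 on array 11. Chromosome 6 had 0.33 on array 11, and chromosomes 16 and 8 had 0.34 and -0.27 on array 12. Rrm2 and Pole2, on chromosome 12, had values on array 10 close to wt+/mt+, and the 45 genes lie on 15 chromosomes. The part of these shifts in single genes was examined with centring per chromosome alone, which left 11 of the 45 genes called after loss of both alleles.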
